A study of Mus musculus with 4 samples.

Results

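The transcripts of 10 mouse genes that write or remove methyl marks on DNA and histones were followed in nuclei of carcinogen-exposed liver, cell class by cell class. They are 2 DNA methyltransferase genes (Dnmt1, Dnmt3a), 3 genes for enzymes that oxidise methylated cytosine (Tet1, Tet2, Tet3), 3 genes for methyltransferases of lysine 4 of histone H3 (Kmt2a, Kmt2c, Kmt2d), and Ezh2 and Setd2, whose products methylate lysines 27 and 36 of histone H3. The genes were taken by symbol from a fixed list, and all 10 were found among the 32285 genes of the deposited files. The rule uses no measured value, but the list was chosen with earlier results of these data known.

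Single-nucleus RNA sequencing, which counts transcripts of isolated nuclei captured in droplets, was done on non-tumor liver of male mice. All of the mice had received the liver carcinogen diethylnitrosamine (DEN) at 25 mg/kg when 14 days old and were killed at 12 months, so an animal without DEN was not part of the comparison. Each genotype in the labels, Brca1-WT or Brca1-KO, had 2 libraries, called biological replicates and named WT-labelled and KO-labelled here. The labels do not give the strain, the deleted exons, or the promoter or Cre line behind the deletion, nor whether more than 1 mouse went into a library. Below, values listed per library come in the order WT-labelled 1 and 2, then KO-labelled 1 and 2.

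DNA methyltransferases and histone methyltransferases take their methyl group from S-adenosylmethionine, the product of the methionine cycle, which is highly active in liver. The ten-eleven translocation (TET) enzymes do not use S-adenosylmethionine; they begin the removal of the mark by oxidising 5-methylcytosine. Methylation of lysine 4 and lysine 36 of histone H3 is found at active promoters, enhancers and transcribed gene bodies, and methylation of lysine 27 by the Polycomb complex is found at silenced genes.

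The files held between 5209 and 7833 barcodes and between 36662067 and 45638888 counted molecules (UMIs, unique molecular identifiers) per library, and 4795 to 6970 nuclei per library were kept after filters. Called doublets made up 11.3%, 7.33%, 5.01% and 2.99% of the filtered nuclei, and any pair of libraries shared 9 to 20 barcodes. The 7 cell classes with at least 30 nuclei in every library were hepatocyte-like (2573 to 4088 nuclei per library), endothelial-like (673 to 1568), Kupffer-like (309 to 551), stellate-like (279 to 453), T or NK-like (162 to 247), B-like (75 to 165) and monocyte or dendritic-like (51 to 80). Kupffer cells are the resident macrophages of the liver, and stellate cells are its vitamin A-storing mesenchymal cells. KO-labelled library 2 stood apart, with 89.8% of its hepatocyte-like nuclei in 3 clusters that held 1.36%, 4.30% and 0.661% of those of the other libraries. Its endothelial-like nuclei also lay mostly in another cluster, at 87.7% against 18.0%, 47.8% and 36.2%. Brca1, a DNA repair gene, did not fall in both KO-labelled libraries: its level in hepatocyte-like nuclei was 13.0, 12.3, 18.6 and 5.78 CPM, which is UMIs per 1000000 UMIs of the class in 1 library (log2 fold change -0.03, SE 0.53). Brca1 was higher in both KO-labelled libraries in endothelial-like (2.43, 4.71, 6.04 and 5.14 CPM) and Kupffer-like nuclei (1.38, 1.39, 7.13 and 5.54). The endothelial-like log2 fold change of Brca1 was 0.76 (SE 0.54). In Kupffer-like nuclei Brca1 was too sparse to pass the filter for testing, so those levels rest on few molecules. Of the genes tested in these classes, 10.6% and 12.4% were higher without overlap. In the remaining classes the Brca1 levels overlapped. The kit counts tags from the 3′ end, and the labels do not give the deleted exons. Why the Brca1 count did not fall in both was not tested, so each genotype below is given as the labels have it. Hepatocyte transcripts were counted in all classes: the 12 hepatocyte markers summed to 16181 to 21223 CPM in hepatocyte-like nuclei and to 3401 to 10282 in the other classes. The part of free RNA in the levels of other classes was not tested.

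The promoters of these genes are shown because several of the enzymes act on CpG, the dinucleotide that DNA methyltransferases modify. RefSeq (GRCm38.p6) gave 14 start sites for the 10 genes, and the 250 bases before each start held 2 to 51 CpG, against a median of 6 over 32851 promoters of the same length. The 5 sequences below belong to the genes with the widest differences between cell classes, Dnmt1, Dnmt3a and Tet1, and to the start with the most CpG, that of Tet2. They are written 5′ to 3′ on the strand of the gene, and capitals mark each CpG.
Dnmt1 start 1, chr9:20959889-20960138, minus strand: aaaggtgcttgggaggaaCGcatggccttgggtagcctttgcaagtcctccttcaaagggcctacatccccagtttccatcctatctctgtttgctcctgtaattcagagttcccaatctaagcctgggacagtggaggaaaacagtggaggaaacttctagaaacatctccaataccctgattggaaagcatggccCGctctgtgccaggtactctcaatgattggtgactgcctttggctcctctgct
Dnmt1 start 3, chr9:20952624-20952873, minus strand: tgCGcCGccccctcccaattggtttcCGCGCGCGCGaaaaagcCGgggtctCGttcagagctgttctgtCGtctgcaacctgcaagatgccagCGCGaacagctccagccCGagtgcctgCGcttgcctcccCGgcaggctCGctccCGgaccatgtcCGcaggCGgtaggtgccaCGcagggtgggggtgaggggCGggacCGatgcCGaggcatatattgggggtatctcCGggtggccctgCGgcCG
Dnmt3a start 1, chr12:3806730-3806979, plus strand: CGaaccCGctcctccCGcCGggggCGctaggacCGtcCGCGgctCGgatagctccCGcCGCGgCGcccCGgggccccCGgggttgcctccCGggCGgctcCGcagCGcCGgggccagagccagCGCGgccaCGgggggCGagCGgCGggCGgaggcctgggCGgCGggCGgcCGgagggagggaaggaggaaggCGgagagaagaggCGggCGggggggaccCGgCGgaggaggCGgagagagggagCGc
Tet1 start 1, chr10:62887325-62887574, minus strand: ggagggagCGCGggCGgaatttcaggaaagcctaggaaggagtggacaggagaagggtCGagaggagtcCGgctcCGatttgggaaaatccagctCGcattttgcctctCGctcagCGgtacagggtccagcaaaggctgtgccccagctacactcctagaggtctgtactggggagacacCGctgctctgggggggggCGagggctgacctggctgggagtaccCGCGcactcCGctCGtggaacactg
Tet2 start 1, chr3:133544391-133544640, minus strand: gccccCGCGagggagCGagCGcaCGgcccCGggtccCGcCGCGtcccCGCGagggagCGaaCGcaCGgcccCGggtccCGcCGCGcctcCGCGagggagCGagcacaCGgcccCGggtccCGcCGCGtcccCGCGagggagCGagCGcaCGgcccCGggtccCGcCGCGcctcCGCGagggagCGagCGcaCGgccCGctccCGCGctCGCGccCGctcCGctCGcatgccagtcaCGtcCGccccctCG

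The most upstream Dnmt1 start held 2 CpG and the third held 26, a number reached by 9.59% of all promoters. The first Dnmt3a start held 38, Tet1 15 and Tet2 51, a number reached by 0.0670% of promoters. The letters TTTCGCGC, TTTGGCGC and TTTCCCGC, forms of the binding site of E2F cell cycle factors, were searched on both strands. They were found in 1 of the 14 windows, that of the third Dnmt1 start, and in 1.53% of all promoters. A match of letters is not a measured binding site, and methylation of these promoters was not measured in these data.

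Most of these genes had a higher level in T or NK-like and monocyte or dendritic-like nuclei than in hepatocytes, and 7 or 5 of the 10, depending on the scale, in Kupffer-like nuclei. A level in CPM allows 1 gene to be compared between classes and not 1 gene with another. In T or NK-like nuclei, 9 of the 10 genes lay above the same library's hepatocyte-like nuclei in 4 of 4 libraries, where 36.8% of the genes at 10 or more CPM did so. The count was 7 of 10 in Kupffer-like nuclei (38.7% of genes), 6 of 10 in monocyte or dendritic-like nuclei (32.3%), 5 of 10 in endothelial-like (37.9%) and in stellate-like nuclei (32.2%), and 4 of 10 in B-like nuclei (28.3%). Hepatocytes spend a large part of their transcripts on few genes, and with the 50 most abundant hepatocyte genes left out of the totals the counts were 6, 5, 6, 4, 4 and 3 in the same order, where 32.4%, 34.5%, 28.9%, 33.4%, 27.9% and 25.6% of genes lay above. The counts in endothelial-like, stellate-like and B-like nuclei were near those shares. On that scale 5 of the 10 genes lay below hepatocytes in 4 of 4 libraries in stellate-like nuclei, against 1 of 10 before. The share of all genes that lay below was not counted, so this number has no background here. The class with the highest level was the same for all 10 genes on both scales, and the lowest class for 8 of 10. The classes came from the same nuclei, so these orders are described without a test.

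**Figure D1:**
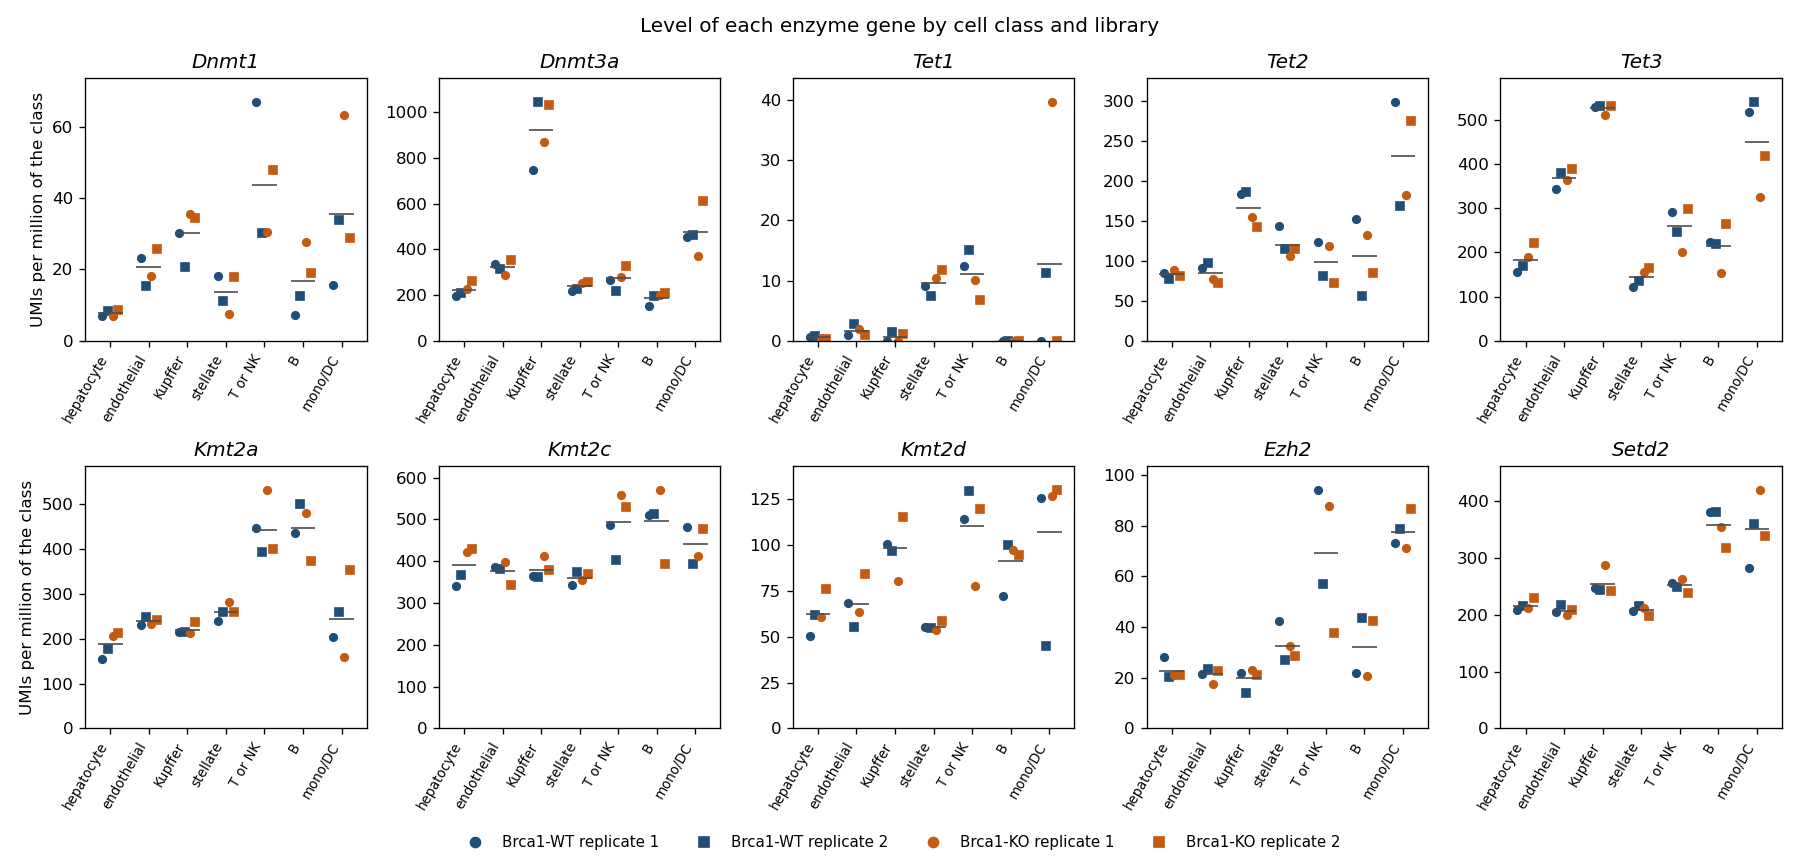
Level of each of the 10 genes, in CPM (UMIs per 1000000 UMIs of the class), in 7 cell classes. Each point is 1 library (blue Brca1-WT, orange Brca1-KO) and each bar is the mean of 4 libraries. By these means Dnmt3a and Tet3 are highest in Kupffer-like nuclei, Kmt2a in T or NK-like and B-like nuclei, and Kmt2c is nearly level.

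Dnmt3a, which places new methyl marks on DNA, had its highest level in Kupffer-like nuclei, the macrophages of the liver. Its Kupffer-like levels were 749, 1045, 868 and 1031 CPM, from 487 to 930 UMIs per library. In hepatocyte-like nuclei they were 198, 210.2, 226 and 261 CPM. The lowest Kupffer-like library therefore lay far above the highest hepatocyte-like one, with a ratio of means of 4.13. The order went on with monocyte or dendritic-like (476 ± 101, SD over 4 libraries), endothelial-like (323 ± 29.8), T or NK-like (273 ± 44.4), stellate-like (239 ± 19.4), hepatocyte-like (224 ± 27.4) and B-like nuclei (189 ± 25.2). Each class lay above the next in 4 of 4 libraries except T or NK-like over stellate-like and stellate-like over hepatocyte-like, each in 3 of 4. With the 50 most abundant hepatocyte genes left out of the totals, the last pair turned round, with hepatocyte-like (273 ± 33.7) above stellate-like nuclei (263 ± 25.1) in 4 of 4 libraries.

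The share of nuclei with a Dnmt3a UMI gave the same contrast at equal depth. With each nucleus thinned to 1000 UMIs, 48.1% (95% Clopper-Pearson interval 42.5 to 53.8%), 63.9% (58.3 to 69.2%), 57.8% (51.4 to 64.0%) and 58.9% (54.1 to 63.5%) of Kupffer-like nuclei held one. The shares were 17.6% (16.2 to 19.2%), 20.2% (19.0 to 21.5%), 20.4% (18.8 to 22.0%) and 23.6% (22.4 to 25.0%) of hepatocyte-like nuclei. Before thinning, the shares in hepatocyte-like nuclei averaged 72.6% in the WT-labelled libraries and 80.5% in the KO-labelled ones, at median depths of 5944.5 to 9513 UMIs per hepatocyte-like nucleus against 1413 to 1700.5 per Kupffer-like nucleus. The intervals cover counting error only. Thinning left out 7 to 32 hepatocyte-like and 60 to 111 Kupffer-like nuclei per library that were too shallow. An antisense gene that overlaps it, Dnmt3aos, held 280 UMIs in all nuclei against 36549 for Dnmt3a.

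Dnmt1, which copies existing methyl marks onto new DNA strands, was lowest in hepatocytes. Its hepatocyte-like levels were 7.05, 8.32, 7.06 and 8.51 CPM, from 198 to 330 UMIs. In Kupffer-like nuclei the levels were 30.3, 20.8, 35.7 and 34.4, a ratio of means of 3.91, and in T or NK-like nuclei they were 66.9, 30.1, 30.5 and 47.8, a ratio of 5.66. All 6 other classes lay above hepatocytes in every library, or 4 of the 6 with the 50 most abundant hepatocyte genes left out, where B-like and stellate-like nuclei did so in 3 of 4. The smallest of them rest on few molecules, 2 to 4 UMIs per library in B-like and 3 to 8 in monocyte or dendritic-like nuclei. T or NK-like nuclei lay above monocyte or dendritic-like nuclei in 2 of 4 libraries and these above Kupffer-like nuclei in 2 of 4, so the first 3 places have no clear order.

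Dnmt1 belongs to the genes that dividing cells use, and transcripts of the division marker Mki67 were scarce in hepatocyte-like nuclei, at 7, 14, 10 and 9 UMIs per library. They numbered 13, 1, 8 and 0 in T or NK-like nuclei and 5, 6, 11 and 20 in Kupffer-like nuclei. The part of dividing nuclei in the Dnmt1 levels was not tested.

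Among the TET genes, Tet3 had its highest mean level in Kupffer-like nuclei, and Tet2 was highest in the myeloid classes together. Tet3 levels in Kupffer-like nuclei were 529, 532, 510.0 and 532 CPM, with an SD of 10.7. Endothelial-like nuclei followed monocyte or dendritic-like nuclei (451 ± 99.0) with 344, 381, 365 and 388. Kupffer-like nuclei exceeded monocyte or dendritic-like nuclei in 3 of 4 libraries, and the latter exceeded endothelial-like nuclei in 3 of 4. Hepatocyte-like nuclei held 155, 170.0, 189 and 221, and stellate-like nuclei were lowest, with 121, 135, 156 and 165. The endothelial-like level was 2.01 times the hepatocyte-like level and the Kupffer-like level 2.86 times.

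Tet2 levels were 299, 169, 182 and 275 CPM in monocyte or dendritic-like nuclei and 184, 186, 155 and 142 in Kupffer-like nuclei. The first exceeded the second in 3 of 4 libraries. Hepatocyte-like nuclei held 84.8, 77.5, 89.0 and 81.1 and endothelial-like nuclei 90.5, 97.6, 77.5 and 72.0, so these 2 classes overlapped. Stellate-like nuclei lay above hepatocytes in every library (120 ± 16.4).

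Tet1 had a very low level in hepatocytes and a higher one in T or NK-like and stellate-like nuclei. Hepatocyte-like sums held 16, 25, 12 and 14 Tet1 UMIs which is 0.570, 0.849, 0.411 and 0.361 CPM. In stellate-like nuclei 9, 8, 7 and 13 UMIs gave 9.09, 7.42, 10.4 and 11.7 CPM, and in T or NK-like nuclei 5, 5, 3 and 2 UMIs gave 12.4, 15.04, 10.2 and 6.83. Both classes lay above hepatocytes in 4 of 4 libraries, with ratios of means of 17.6 and 20.3. B-like nuclei held no Tet1 UMI in any library, which allows up to 10.9, 18.7, 20.9 and 14.2 CPM at 3 counts, above the stellate-like level of the same library each time, so a difference between these classes was not detectable at this depth. The highest class mean was that of monocyte or dendritic-like nuclei (12.7 ± 18.7), where 1 library held 5 UMIs, 1 held 1 and the others held 0.

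Kmt2a, which encodes MLL1, a methyltransferase that keeps blood-forming genes active, stood highest in lymphocytes. Its levels were 435, 499.98, 480.0 and 374 CPM in B-like nuclei and 446, 394, 531 and 400 in T or NK-like nuclei. B-like nuclei exceeded T or NK-like nuclei in 1 of 4 libraries only, so these 2 classes were not ordered, and both lay above every other class mean. Stellate-like nuclei followed (260 ± 17.0), and hepatocyte-like nuclei were lowest, with 155, 177, 206 and 212. At 1000 UMIs per nucleus, 41.3%, 37.8%, 46.7% and 34.7% of T or NK-like nuclei held a Kmt2a UMI, against 14.4%, 14.8%, 18.8% and 19.3% of hepatocyte-like nuclei. The overlapping antisense gene AC061963.1 held 873 UMIs in all nuclei against 29294 for Kmt2a.

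Kmt2c, an enhancer H3K4 methyltransferase, varied least between classes: its 7 class means lay between 361 and 497 CPM, a ratio of 1.38. Hepatocyte-like nuclei (341, 367, 422 and 430) ranked in the middle. Kmt2d, its close relative, ran from 55.6 ± 2.08 in stellate-like to 110 ± 22.5 in T or NK-like nuclei, with hepatocyte-like nuclei at 50.6, 62.0, 60.6 and 76.1. Kupffer-like (98.2 ± 14.4), B-like (91.1 ± 12.6) and T or NK-like nuclei each lay above hepatocytes in 4 of 4 libraries for Kmt2d, while for Kmt2c T or NK-like nuclei alone did.

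Ezh2, the catalytic subunit of Polycomb repressive complex 2, was 3.42 times higher in monocyte or dendritic-like and 3.06 times higher in T or NK-like than in hepatocyte-like nuclei. They came to 73.3, 78.7, 71.3 and 86.7 CPM in the first, from 7 to 14 UMIs, and 94.2, 57.2, 88.0 and 37.6 in the second, from 11 to 38 UMIs. Hepatocyte-like nuclei held 28.1, 20.1, 21.2 and 21.1. Endothelial-like (21.3 ± 2.61) and Kupffer-like nuclei (20.02 ± 4.20) overlapped with them, though Kupffer-like nuclei lay below hepatocytes in 4 of 4 libraries with the 50 most abundant hepatocyte genes left out. The T or NK-like libraries with the most Ezh2 were those with the most Mki67 UMIs, 13 and 8, and the others held 1 and 0; the part of dividing nuclei in these levels was not tested.

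Setd2, the main enzyme for trimethylation of H3K36 behind elongating RNA polymerase, was highest in B-like nuclei (380.2, 381, 355 and 317 CPM) and monocyte or dendritic-like nuclei (283, 360, 420 and 339). These 2 classes were not ordered, each being the higher in 2 libraries. Hepatocyte-like (208, 215, 212 and 230), stellate-like (208 ± 7.37) and endothelial-like nuclei (207 ± 7.28) lay within 1 narrow band. Kupffer-like and T or NK-like nuclei lay above hepatocytes in every library, by ratios of 1.18 and 1.17. Both statements depend on the scale: with the 50 most abundant hepatocyte genes left out, hepatocyte-like nuclei (264 ± 11.4) lay above endothelial-like (229.8 ± 15.1) and stellate-like nuclei (229 ± 5.20) in 4 of 4 libraries, and Kupffer-like and T or NK-like nuclei above hepatocytes in 3 of 4.

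Genes whose levels followed each member most closely over the 28 sums of 7 classes and 4 libraries were found among 9912 genes by Pearson's r of log levels, as a description; sums of 1 class share their cells' identity and sums of 1 library share its preparation. Dnmt3a was followed by Vsig4 (r = 0.94), a Kupffer cell receptor, Mefv (0.92) and Cd300lb (0.92). Kmt2a was followed by Pip5k1b (0.92), Ltb (0.90), which encodes lymphotoxin beta, and Ikzf3 (0.89), a lymphocyte transcription factor, and Setd2 by Bcl11a (0.93), a B cell and dendritic cell factor. Tet3 was nearest to Slc43a2 (0.91), Ezh2 to St8sia1 (0.89), Tet2 to Sirpb1b (0.86), Dnmt1 to Rasa1 (0.83), Kmt2c to Unc5cl (0.83), Tet1 to Ikzf2 (0.79) and Kmt2d to Bcl2a1b (0.79).

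Within hepatocytes, Ezh2 was higher in the cluster led by Glul. Glul, glutamine synthetase, marks hepatocytes around the central vein, and Sds, serine dehydratase, marks those of the periportal side. In the Glul-led cluster of each library Ezh2 stood at 33.2, 27.9, 28.9 and 33.0 CPM, and in the cluster highest in Sds, among those with at least 100 nuclei of the library, at 26.1, 16.7, 16.7 and 16.1. The Glul-led cluster was thus higher in 4 of 4 libraries, by a mean ratio of 1.68 ± 0.32 (SD, n = 4). KO-labelled library 2 had its own Glul-led and Sds-high clusters, and its ratio, 2.06, was the highest of the 4, while the other 3 libraries gave 1.27, 1.67 and 1.73 from 1 shared pair of clusters. That shared pair held only 30 and 52 nuclei of KO-labelled library 2, with more Glul (1567 CPM) and more Sds (450.1 CPM) than the pair used for it (1046 and 215), and there Ezh2 stood at 49.6 CPM from 7 UMIs and 11.8 CPM from 4. None of the 10 genes was used for clustering. The pair of clusters was chosen after its values had been seen, so no p-value is given.

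Dnmt3a was also higher in the Glul-led cluster in 4 of 4 libraries, but by 1.003, 1.01, 1.33 and 1.38 from lowest to highest, and Kmt2c by 1.02 to 1.05. Tet3 (mean ratio 0.92 ± 0.04) and Kmt2d (0.91 ± 0.07) were lower there in all 4. Of 8080 genes measured at 10 or more CPM, 25.3% were higher and 24.3% lower in the Glul-led cluster in 4 of 4 libraries. The 5 members with 1 direction in every library are thus a share near that of all genes. How many genes reach a ratio as large as that of Ezh2 was not counted, so its size has no background here.

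**Figure D2:**
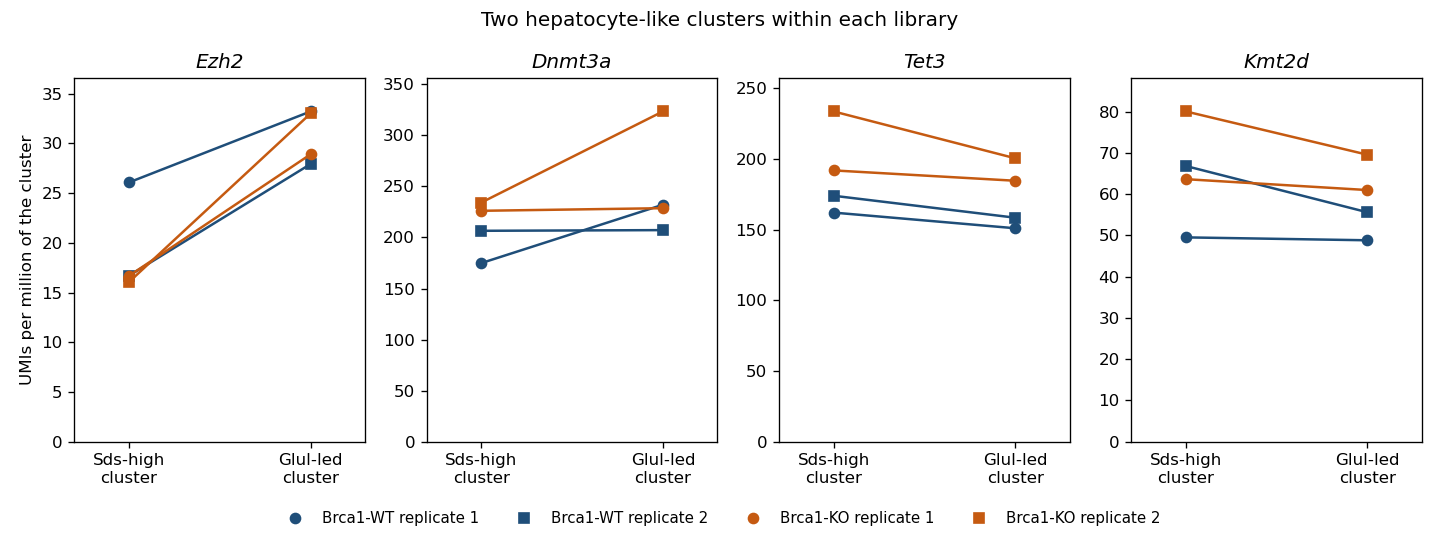
Levels of Ezh2, Dnmt3a, Tet3 and Kmt2d, in CPM, in the hepatocyte-like cluster highest in Sds, among those with at least 100 nuclei of the library, and in the Glul-led cluster with the most nuclei. Each line joins the 2 clusters of 1 library (blue Brca1-WT, orange Brca1-KO); the 4 Ezh2 lines rise, by 1.27 to 2.06 times.

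No gene of the list passed the test between genotypes in hepatocyte-like, endothelial-like or Kupffer-like nuclei, and neither did any other gene. The comparison asks whether the methylation enzymes change with loss of Brca1, in a series whose title links hepatic Brca1 to Bhmt, a methionine cycle enzyme. edgeR's quasi-likelihood test on sums per library called 0% of 15045 genes in hepatocyte-like, 0% of 11161 in endothelial-like and 0% of 8304 in Kupffer-like nuclei at an adjusted p under 0.05. It called 0 in the stellate-like, T or NK-like, B-like and monocyte or dendritic-like classes too, where 331, 164, 365 and 136 genes had an unadjusted p under 0.05 and DESeq2 called 0, 0, 1 and 0. At an unadjusted p under 0.05 there were 470 (3.12%), 269 (2.41%) and 395 genes (4.76%) in the first 3 classes, none of them a member, and DESeq2 called 10, 0 and 0, with no member among them. Without KO-labelled library 1, the same test called 31 genes in hepatocyte-like, 606 in endothelial-like and 527 in Kupffer-like nuclei, and without KO-labelled library 2 it called 57 in Kupffer-like nuclei; no member was called in any of these. Such a fit has 1 KO-labelled library, which is assumed to vary as the 2 WT-labelled ones do, so its calls measure no spread among KO-labelled libraries. With 2 libraries against 2, an exact permutation test cannot give a p below 0.33.

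In hepatocyte-like nuclei 4 of the 10 genes were higher in both KO-labelled libraries than in both WT-labelled libraries, where 11.9% of all tested genes were. Kmt2a stood at 155 and 177 CPM in the WT-labelled libraries and at 206 and 212 in the KO-labelled ones (log2 fold change 0.38, SE 0.19, edgeR adjusted p = 0.995). Tet3 stood at 155 and 170.0 against 189 and 221 (0.38, SE 0.20), Dnmt3a at 198 and 210.2 against 226 and 261 (0.30, SE 0.20), and Kmt2c at 341 and 367 against 422 and 430 (0.31, SE 0.21), each with the same adjusted p. These 4 groups did not overlap, yet the 95% intervals of the fitted changes reached from -0.11 to 0.86 for Kmt2a and from -0.14 to 0.90 for Tet3. Without KO-labelled library 2 the log2 fold changes were 0.32 for Kmt2a, 0.26 for Kmt2c, 0.23 for Tet3 and 0.16 for Dnmt3a, the last 2 smaller by over 1.5 times.

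Tet1 was lower in both KO-labelled libraries, with a log2 fold change of -0.83 (SE 0.44, adjusted p = 0.995), from 12 and 14 UMIs against 16 and 25; 19% of tested genes were lower without overlap. The other members overlapped between genotypes. Their log2 fold changes were 0.33 (SE 0.22) for Kmt2d, 0.11 (SE 0.16) for Tet2, 0.11 (SE 0.19) for Setd2, 0.07 (SE 0.25) for Dnmt1 and -0.15 (SE 0.22) for Ezh2. Over the 10 genes the median was 0.21, against -0.01 over all 15045 genes. The members are long genes, from 39.5 to 227 kb, and among the 4379 tested genes of that length 13.8% were higher without overlap and the median was 0.03. Sums of a class cannot tell fewer transcripts per nucleus from a changed mix of nuclei, and the hepatocyte mix differed in KO-labelled library 2, as given above.

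**Figure D3:**
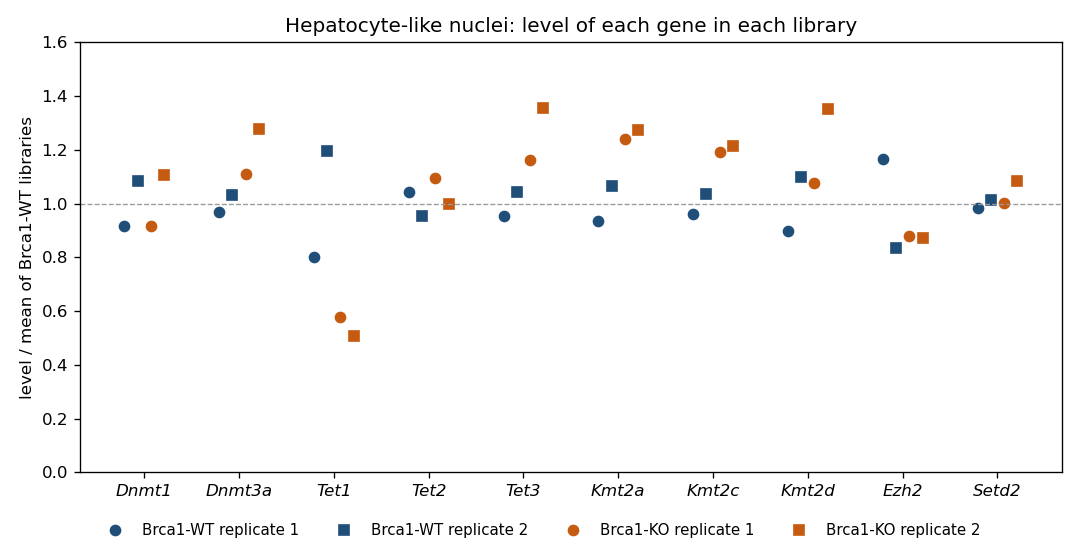
Level of each gene in hepatocyte-like nuclei of each library, divided by the mean of the WT-labelled libraries (blue Brca1-WT, orange Brca1-KO; circles replicate 1, squares replicate 2). The orange points lie above both blue points for Dnmt3a, Tet3, Kmt2a and Kmt2c and below both for Tet1, which rests on 12 to 25 UMIs per library.

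Thinned to 1000 UMIs, 14.6% ± 0.299 of hepatocyte-like nuclei of the WT-labelled libraries and 19.0% ± 0.345 of the KO-labelled ones held a Kmt2a UMI (SD, n = 2 each; 2-sided exact permutation p = 0.333). The shares were 28.3% ± 1.496 and 33.3% ± 0.788 for Kmt2c, 14.9% ± 1.33 and 19.3% ± 2.99 for Tet3, and 18.9% ± 1.81 and 22.0% ± 2.31 for Dnmt3a, with the same p. These shares come from the same counts that picked the 4 genes, so they are a description and no separate support. For Dnmt3a, the shares of WT-labelled library 2 and KO-labelled library 1, given above, nearly coincided. At 1000 UMIs Tet1 was seen in too few hepatocyte-like nuclei to compare, 0.0126% and 0.0246% on average.

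In endothelial-like nuclei no member was higher without overlap, where 10.6% of all genes were, and 1 of 9 tested members was lower, where 22% were. That gene was Tet2, at 90.5 and 97.6 CPM in the WT-labelled libraries and 77.5 and 72.0 in the KO-labelled ones (log2 fold change -0.26, SE 0.19, edgeR adjusted p = 1.0). In Kupffer-like nuclei Tet2 was again lower, at 184 and 186 against 155 and 142 (-0.25, SE 0.20, adjusted p = 0.949), where 21.1% of genes were. Dnmt1, at 30.3 and 20.8 against 35.7 and 34.4 (0.52, SE 0.36, adjusted p = 0.932), and Kmt2c, at 364 and 362 against 412 and 379 (0.19, SE 0.20), were higher there without overlap, where 12.4% of genes were. Mki67 in Kupffer-like nuclei moved the same way as Dnmt1, at 6.88 and 8.31 CPM against 19.6 and 22.2, and its part in the Dnmt1 values was not tested.

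The other log2 fold changes of members lay between -0.12 and 0.32 in endothelial-like nuclei and between 0.04 and 0.36 in Kupffer-like nuclei. The signs of 4 small endothelial-like changes (Dnmt3a, Kmt2a, Kmt2c, Setd2) and 2 Kupffer-like ones (Tet3, Kmt2d) depended on the scaling, being positive after TMM and negative as ratios of CPM. The difference of the genotype effect between hepatocyte-like and endothelial-like nuclei was called for 0% of 16188 genes, and 481 had an unadjusted p under 0.05. For the members it ran from -0.79 (SE 1.085) for Tet1 to 0.36 (SE 0.27) for Tet2, each with an edgeR adjusted p of 1.0.

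**Figure D4:**
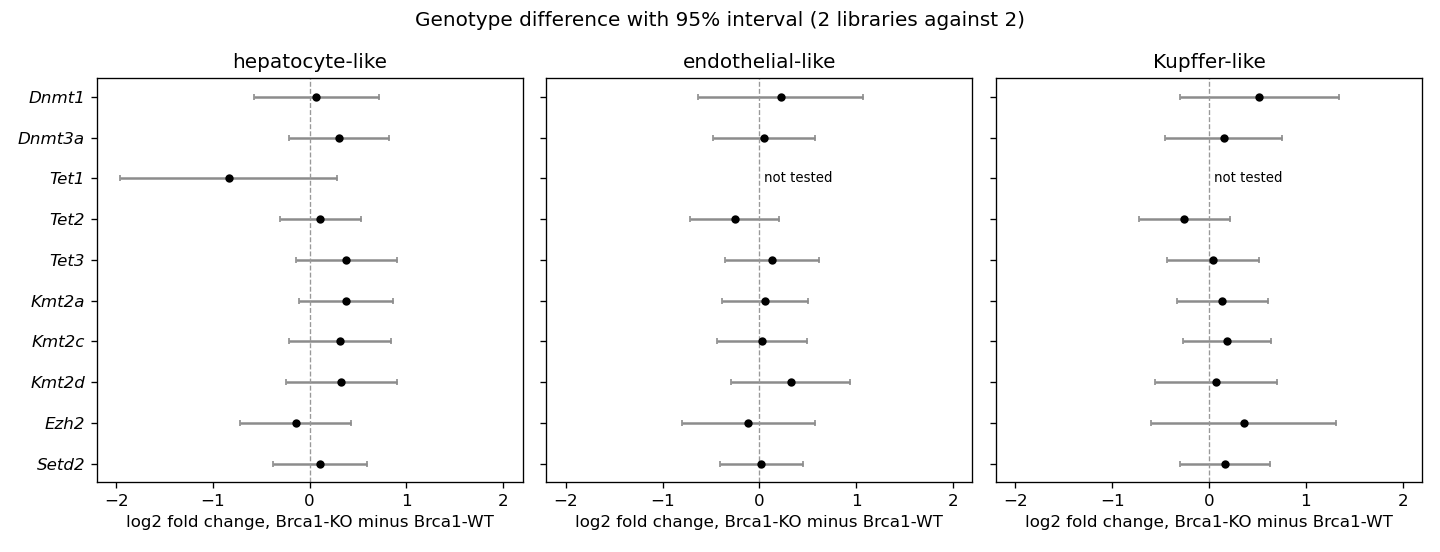
Log2 fold change of each gene, Brca1-KO minus Brca1-WT, from edgeR on summed UMIs in hepatocyte-like, endothelial-like and Kupffer-like nuclei, with 95% intervals. All intervals include 0; Tet1 was too sparse to test in endothelial-like and Kupffer-like nuclei.

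Other genes of the same pathways, from lists chosen with earlier results of these data known, gave no called gene in hepatocyte-like nuclei either. All 5 tested H3K36 methyltransferase genes besides Setd2 had positive log2 fold changes (median 0.22), 4 of them higher without overlap, where 11.9% of all tested genes were higher and 19% lower. Among them Nsd2 stood at 50.1, 66.2, 78.2 and 73.5 CPM (0.43, SE 0.20), Ash1l at 455, 443, 507 and 543 (0.27, SE 0.22) and Nsd3 at 415, 432, 491 and 470 (0.22, SE 0.20). All 11 methyltransferase genes for H3K9, H3K79 and H4K20 were positive as well (median 0.13, 3 higher without overlap), with Setdb2 at 0.34 (SE 0.18), Kmt5a at 0.47 (SE 0.25) and Ehmt2 at 0.21 (SE 0.18). Across all genes 49.1% were positive and the median was -0.01.

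The 16 partners and relatives of the KMT2 enzymes had 13 positive and 3 negative changes (median 0.07), with 2 higher and 2 lower without overlap, against the same shares of all genes. Ash2l, a core subunit of every KMT2 complex, lay lower in both KO-labelled libraries, at 29.3, 25.2, 21.2 and 19.4 CPM (-0.38, SE 0.18, edgeR adjusted p = 0.995). Kdm6a (0.37, SE 0.28) and Psip1 (0.28, SE 0.21) were next by p. Of the 10 other Polycomb repressive complex 2 genes, 6 were positive and 4 negative (median 0.04), with Rbbp4 at 92.5, 93.1, 101 and 134 (0.39, SE 0.22), Jarid2 at 0.19 (SE 0.18) and Phf19 at -0.63 (SE 0.38). Of 10 tested DNA methylation partners, 6 were positive (median 0.03). Dnmt3b, the second de novo DNA methyltransferase, stood at 11.002, 6.35, 7.44 and 4.10 (-0.56, SE 0.41), Uhrf2 at 0.25 (SE 0.21) and Zbtb38 at 0.20 (SE 0.17).

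Of 17 histone demethylase genes, 12 were positive (median 0.08). Kdm2b, which encodes a CpG island binding H3K36 demethylase, stood at 110, 138, 101 and 35.4 CPM (-0.85, SE 0.48), lowest in the library that stood apart, and the log2 fold changes of Phf8 and Phf2 were 0.34 (SE 0.18) and 0.32 (SE 0.22). Of 7 tested arginine methyltransferase genes, 2 were positive and 5 negative (median -0.13), with Prmt7 at -0.19 (SE 0.19), Prmt5 at -0.15 (SE 0.20) and Prmt1 at -0.13 (SE 0.26). Of 7 tested proliferation genes 6 were negative (median -0.11), with Rrm2 at -0.42 (SE 0.52), Mki67 at -0.31 (SE 0.55) and Mcm6 at -0.17 (SE 0.29).

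Of the 14 genes that supply or use S-adenosylmethionine, 8 were positive and 6 negative (median 0.06). Bhmt, which remethylates homocysteine with betaine, stood at 2001, 1216, 726 and 272 CPM (log2 fold change -1.66, SE 0.54, unadjusted p = 0.0265, adjusted p = 0.995), the one gene of these lists with an unadjusted p under 0.05. Mat2a, an S-adenosylmethionine synthetase, stood at 65.3, 72.1, 81.7 and 89.4 (0.36, SE 0.18). Ahcyl2, a relative of adenosylhomocysteinase, stood at 126, 141, 178 and 157 (0.37, SE 0.18). These 2 of the 14 genes were higher without overlap and 1 was lower, where 11.9% and 19.0% of all tested genes were. Bhmt lay lower in both KO-labelled libraries. Of the 10 members, 8 had positive changes, where 49.1% of all tested genes and 54.1% of those as long as the members did. None of these differences passed the adjusted threshold, and a link between Bhmt and the members was not tested.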

How the data were processed

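The deposited values are raw counts of UMIs per gene and barcode, not normalized, which the authors made with Cell Ranger 6.0.0 (version per the file headers). The submitters' processing notes name the build GRCh38, which is human, whereas the gene identifiers are those of mouse; the sources used here do not give the mouse build, or whether introns and strand were counted. Lengths and overlaps came from GENCODE vM21, promoters from RefSeq GRCm38.p6.

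Nuclei with at least 500 genes and at most 5% mitochondrial UMIs were kept, and doublets were called with Scrublet in scanpy 1.11.5 (expected rate 0.06) and left out. All libraries entered a single clustering with no batch correction (2000 variable genes, leaving out the 10 genes and the lists; 30 components; 15 neighbours; Leiden resolution 1), which gave 22 clusters. A name needed 3 or more markers seen in 10% or more of a cluster's nuclei, a marker score 1.5 times that of any other class (chosen after the data were seen), and no other class leading its top 10 genes. CPM levels, UMIs per 1000000 UMIs of a sum, use no TMM. Unnamed clusters held 5.84%, 2.35%, 2.63% and 1.74% of nuclei.

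UMIs were summed per library and class and tested with edgeR 4.0.16 in R 4.3.3 (robust glmQLFit, glmQLFTest, TMM, filterByExpr, no block), with Benjamini-Hochberg adjustment over all genes of a class and a threshold of 0.05; DESeq2 1.42.0 was an alternative. The scripts were tested on simulated data. Nuclei are not replicates, and p-values measure the spread between 2 libraries per group. Members and lists were chosen with earlier results of these data known. Genes named were the 10 members, Brca1 and up to 3 per list of smallest unadjusted p in hepatocyte-like sums; Glul, Sds and the clusters they mark, Mki67 in other classes and overlapping genes were added after values were seen. The lists covered DNA methylation partners, H3K4, H3K36, and H3K9, H3K79 and H4K20 methyltransferases, Polycomb repressive complex 2, demethylases, arginine methyltransferases, S-adenosylmethionine supply and use, and proliferation.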

Additional observations from a re-analysis of the deposited data

Results flagged for a closer look

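Some genotype ratios of Tet1 and Tet3 pointed opposite ways in different cell classes, with both KO-labelled libraries above both WT-labelled libraries in one class and below both in the other. These differences were not tested, and they were found by a search of all members over pairs of classes. Of all tested genes, 11.9% were higher and 19.0% lower without overlap in hepatocyte-like nuclei. The shares were 12.6% and 19.5% in stellate-like, 12.6% and 15.9% in T or NK-like, and 14.1% and 18.4% in monocyte or dendritic-like nuclei. The Tet1 ratio, Brca1-KO over Brca1-WT in CPM, was 0.544 in hepatocyte-like nuclei and 1.34 in stellate-like nuclei. In T or NK-like nuclei the Tet1 ratio was 0.619, again opposite to the 1.34 of stellate-like nuclei. Each of these Tet1 values rests on 2 to 25 UMIs per library. The Tet3 ratio was 1.26 in hepatocyte-like and 1.25 in stellate-like nuclei and 0.703 in monocyte or dendritic-like nuclei, where 41 to 99 Tet3 UMIs were counted per library.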

How the results depend on the processing

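None of the 358 alternative log2 fold changes of members in hepatocyte-like, endothelial-like and Kupffer-like nuclei, or of their differences, passed the threshold; the smallest adjusted p was 0.272, and 333 kept their sign. Among the 432 values of the smaller classes and of all nuclei, 57 changed sign and none passed (smallest 0.270). Without a filter on low counts the endothelial-like changes of Kmt2c and Setd2 became -0.0091 and -0.017; thinned nuclei gave -0.12 for Dnmt1 in endothelial-like nuclei, and keeping doublets gave -0.11 for Ezh2 in Kupffer-like nuclei. At 500 UMIs the hepatocyte-like share differences became -0.033 percentage points for Dnmt1 and -0.056 for Tet1, and -0.24 for Tet1 unthinned. The causes were not tested. Leaving out 1 library gave ranges that cross 0 in hepatocyte-like nuclei for Dnmt1 (-0.11 to 0.24) and Ezh2 (-0.36 to 0.12). In endothelial-like nuclei they did so for Dnmt1 (-0.057 to 0.57), Dnmt3a (-0.15 to 0.22), Ezh2 (-0.31 to 0.11), Kmt2a (-0.0018 to 0.13), Kmt2c (-0.055 to 0.096) and Setd2 (-0.043 to 0.080). In Kupffer-like nuclei they did so for Dnmt3a (-0.067 to 0.43), Kmt2d (-0.26 to 0.33) and Tet3 (-0.022 to 0.11), and among the hepatocyte minus endothelial differences for Dnmt1 (-0.62 to 0.21), Ezh2 (-0.31 to 0.30) and Kmt2d (-0.29 to 0.30). The number of all genes called over these fits ran from 0 to 31 in hepatocyte-like, 0 to 606 in endothelial-like, 0 to 527 in Kupffer-like, 1 to 144 in stellate-like, 0 to 141 in T or NK-like, 0 to 212 in B-like, 1 to 48 in monocyte or dendritic-like nuclei, 0 to 270 in all nuclei and 0 to 384 for the difference. Each maximum came without KO-labelled library 1, from fits that assume the lone library of an arm to vary like the other arm. DESeq2 called 10 genes in hepatocyte-like, 1 in B-like and 21 in all nuclei; without a filter the counts were 1, 39, 70, 22, 18, 20, 4 and 2 in the order of classes just given. Thinning gave 1 in B-like and 1 in monocyte or dendritic-like nuclei, and keeping doublets 1 in the latter. With the replicate number as a block, 0 genes were called in each class and the hepatocyte-like changes of Kmt2a and Tet3 were 0.38 and 0.37; same-numbered libraries did not deviate together (r from -0.11 to 0.19), so the numbers were not treated as pairs, and crossed numbers, an alternative chosen after seeing the data, gave 3 calls in monocyte or dendritic-like nuclei, the one class with r under -0.1, 20 in B-like, 1 in Kupffer-like and 0 in each other class and in all nuclei. Levels with the 50 most abundant hepatocyte genes left out moved by less than 1 SD in 41 of 80 cases. Depth limits Tet1 most, then Dnmt1 and Ezh2 in the small classes.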

Other observations

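Clusters that no marker rule named gave further levels of these genes. A cluster led by Plcxd3, Wt1 and Lama2 held 9, 3, 4 and 1 Tet1 UMIs, or 32.1, 12.0, 14.2 and 4.28 CPM, in the order WT-labelled 1 and 2, then KO-labelled 1 and 2. In a cluster led by Negr1, Clec4f and Cd5l with markers of both Kupffer and endothelial cells, 60 nuclei of WT-labelled library 1 gave 658 CPM for Dnmt3a and 443 for Tet3. A cluster that expressed Gpc3, Thsd4 and Cyp2b9, of which Gpc3 is a marker of liver cancer, held 150 nuclei of WT-labelled library 1, 22 of WT-labelled library 2, and 0 and 1 of the KO-labelled libraries. Its Dnmt3a levels were 277 and 323 CPM in the WT-labelled libraries. Its Ezh2 levels there were 17.8 CPM from 22 UMIs and 16.7 CPM from 3 UMIs.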
